A study of Mus musculus with 3 samples.

Results

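Cxcr4 is 1 of the 32285 genes in the count matrices of 3 single-cell libraries of leukocytes from 4T1 mammary tumors. It was chosen by its summed counts in granulocytes, which lay below vehicle in the p38i library and above it in the p38KO library, so those 2 values are given here as a description. 4T1-luc is a luciferase-marked mouse mammary carcinoma line. Each tumor grew from 200000 cells placed in the mammary fat pad of a female BALB/c mouse of 6 to 8 weeks and was taken on day 14. In the vehicle library, mice with p38a wild-type tumors received DPBS for 10 days from day 4. In the p38i library, mice with the same wild-type tumors received LY2228820 (ralimetinib), a p38 kinase inhibitor, by daily gavage at 30 mg/kg over the same days. In the p38KO library, mice carried tumors of 1 4T1 clone, p38a-KO-H9, whose p38a gene had been inactivated with CRISPR-Cas9, and the labels give no treatment. The knockout was in the tumor cells alone, and the leukocytes were those of the host, so a transcript level in sorted leukocytes does not check that label. In each group, tumors of 3 mice were pooled after cold protease digestion, and live CD45+ 7AAD- cells were sorted, so each group was 1 library and no spread between mice could be measured. Both other libraries are compared with the same vehicle library.

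CXCR4 is a G-protein-coupled chemokine receptor. Its ligand CXCL12, made by stromal cells, holds neutrophils in the bone marrow and guides lymphocytes, monocytes and stem cells to CXCL12-rich niches. MIF and extracellular ubiquitin also bind CXCR4, ACKR3 is a scavenger of CXCL12, and GRK kinases and arrestins switch the receptor off and carry it inside the cell. In neutrophils CXCR4 opposes CXCR2: mature cells leave the marrow under CXCR2 signals, and cells that have circulated for long regain CXCR4.

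The mouse gene (ENSMUSG00000045382) lies on the minus strand of chromosome 1 in GRCm38, at chr1:128588199-128592293 in GENCODE, with 2 exons. Exon 1 (chr1:128592189-128592290) holds the start of the coding sequence, and exon 2 (chr1:128588199-128589901) holds the rest of it and the 3' end that a 3' library counts. The transcript of 1805 bases codes for 359 amino acids. The 250 bases before the RefSeq start (GRCm38.p6, chr1:128592300-128592549, minus strand, printed 5′ to 3′) are shown because the transcript counted here starts beside them. The capitals mark an NRF1 core motif and an overlapping pair of TATA motifs, found by search:
Cxcr4 promoter: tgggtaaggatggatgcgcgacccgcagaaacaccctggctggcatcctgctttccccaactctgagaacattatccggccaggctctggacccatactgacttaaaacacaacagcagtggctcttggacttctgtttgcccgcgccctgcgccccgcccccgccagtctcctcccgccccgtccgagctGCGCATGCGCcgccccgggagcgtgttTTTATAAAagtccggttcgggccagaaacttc
The NRF1 core (GCGCATGCGC, the half-site GCGCA followed by its reverse complement) occurred once, and 0.782% of the 32851 promoter windows in the table held it on either strand. TATAAA occurred 2 times, once on each strand in overlap, against 12.4% of windows that held it. The GC box GGGCGG occurred 3 times, against 32.7% of windows. The letters ACGTG, the core of a hypoxia response element, were not in this window and were in 16.6% of all windows.

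The matrices held 4588, 6343 and 5212 barcodes in the vehicle, p38i and p38KO libraries. Of these, 3820, 4793 and 3859 had at least 1500 UMIs (unique molecular identifiers, 1 per captured transcript), at least 300 genes and at most 20% mitochondrial counts, with a median of 3162, 3038 and 3317 UMIs. The median mitochondrial share was 0.671%, 0.968% and 2.10%. Across libraries 20 barcodes were shared, 14 of them among the kept cells. Cells were gated on raw counts: neutrophils (the granulocytes of this study) by Csf3r and Cxcr2, monocytes by Ly6c2 and Fn1, macrophages by C1qa, T cells by Cd3e, natural killer (NK) cells by Ncr1 and dendritic cells (DC) by Flt3. Of each gate's 10 marker genes, 9 or 10 were highest in their own gate in every library. The gate genes are among these markers, and the gating itself favors them in their own gate. Levels are given as CPM, Cxcr4 counts out of 1000000 counts summed over the cells of a gate, with exact Poisson 95% intervals. All intervals here cover counting error only, not differences between mice. Those of levels and ratios also treat each UMI as independent. Cxcr4 UMIs clustered in cells, as given below, so these intervals are too narrow even for the sampling of cells within a library.

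Neutrophils had the highest Cxcr4 level of the 6 gates in all 3 libraries. The level was 233 CPM in vehicle (95% interval 220 to 246, 1270 UMIs in 1777 cells), 156 CPM in p38i (146 to 166, 981 UMIs in 2080 cells) and 360 CPM in p38KO (342 to 379, 1536 UMIs in 1592 cells). The p38KO library was highest and the p38i library lowest, and the 3 intervals did not overlap. Relative to vehicle, Cxcr4 was 1.49-fold lower in p38i (log2 ratio -0.58, 95% interval -0.70 to -0.46) and 1.55-fold higher in p38KO (log2 ratio 0.63, 0.52 to 0.74). Between p38KO and p38i the log2 ratio was 1.21 (1.09 to 1.32). A size limit of 0.5 on the log2 scale, for genes with at least 20 counts over both libraries, was passed by 6% of genes in the lower direction in p38i and by 19.8% in the higher direction in p38KO. The median gene of these neutrophils had a log2 ratio of 0.11 in p38i and 0.15 in p38KO. With median-ratio scaling in place of total counts, the p38KO value was 0.46, below that limit. Neutrophils made up 41.3% of the kept cells and held 50.4% of the Cxcr4 counts in p38KO, against 46.5% of cells and 43.0% of Cxcr4 counts in vehicle.

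The share of neutrophils with a Cxcr4 count moved with the level. At all counts it was 33.6% in vehicle, 26.3% in p38i and 41.3% in p38KO, at medians of 2533, 2276 and 2197 UMIs a cell. With every cell thinned to 1500 UMIs it was 24.0% (22 to 26), 18.4% (16.8 to 20.1) and 32.2% (29.9 to 34.6). The order was thus the same at equal depth. Cells with 2 or more Cxcr4 UMIs after thinning were 8.89%, 5.67% and 12.9% of neutrophils. Cxcr4 UMIs were more clustered in cells than a random spread of the same counts. A Poisson spread at 1 common rate would have put at least 1 UMI in 33.3%, 23.7% and 44.5% of the thinned cells. Each share is more than was seen in that library. The highest count in 1 neutrophil was 18, 10 and 26 UMIs.

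**Figure D1:**
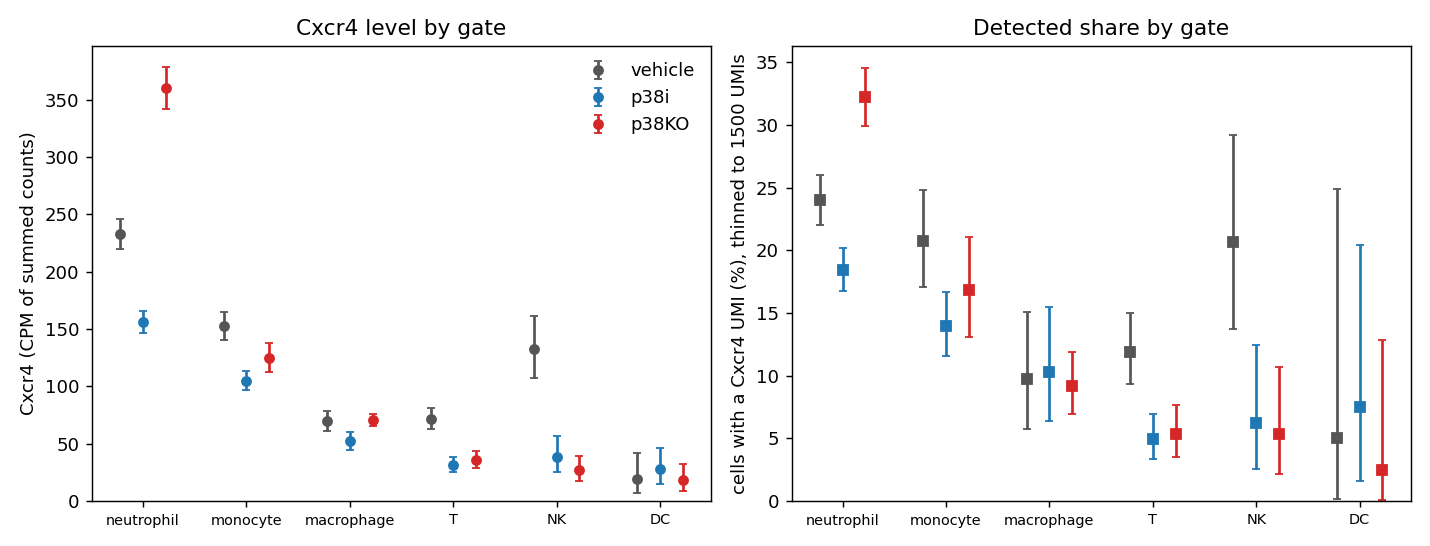
Left, Cxcr4 level (CPM of counts summed over the cells of a gate) in the 6 gates for the vehicle, p38i and p38KO libraries, with exact Poisson 95% intervals; right, the percentage of cells with a Cxcr4 UMI after thinning each cell to 1500 UMIs, with exact binomial 95% intervals. Neutrophils stand highest in every library, from 156 CPM in p38i to 360 CPM in p38KO, and T and NK cells of the vehicle library stand above those of the other libraries.

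The opposite values in neutrophils kept their signs in strata of the gate, but their size differed. The strata are parts of the cells by which Cxcr4 was chosen, so the kept signs are a description. Cxcr4 CPM fell as cells got deeper in each library: in cells of 1500 to 2000 UMIs it was 426 CPM in vehicle, 248 CPM in p38i and 499 CPM in p38KO. In cells of 3000 or more UMIs it was 153, 118 and 273 CPM in the same order. The p38KO log2 ratio was accordingly 0.23 (0.02 to 0.44) in the shallow cells, 0.38 at 2000 to 3000 UMIs and 0.84 (0.65 to 1.03) in the deep ones. The p38i log2 ratio was -0.78, -0.82 and -0.37 in these bins. The shares of cells with a Cxcr4 UMI after thinning ran from 35.3% in vehicle, 25% in p38i and 36.4% in p38KO in the shallow cells to 14.4%, 14.9% and 28.4% in the deep ones. In shallow cells vehicle and p38KO thus had overlapping shares, and in deep cells vehicle and p38i had. Mitochondrial share was the other split: with at most 1% mitochondrial counts the log2 ratios were -0.48 in p38i and 0.80 in p38KO. Above 1%, where vehicle neutrophils reached 311 CPM, they were -1.02 and 0.08 (-0.14 to 0.30). The p38KO library had the most such cells, 524 of 1592 neutrophils against 190 of 1777 in vehicle, and the part of depth and mitochondrial share in the ratios was not tested.

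**Figure D2:**
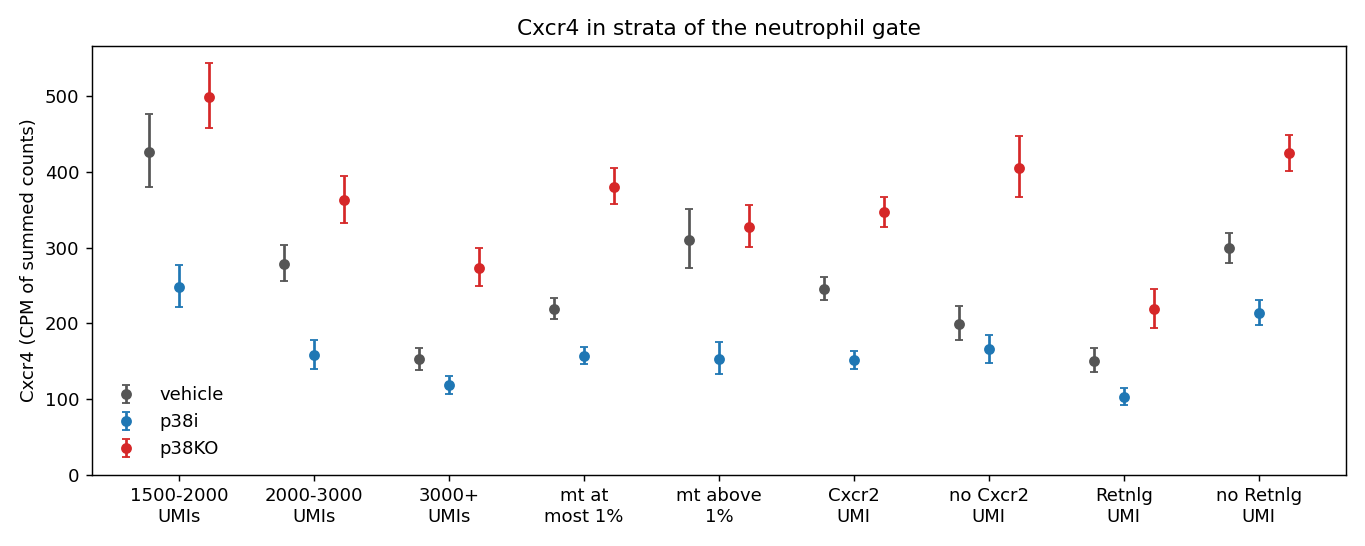
Cxcr4 level (CPM of summed counts, exact Poisson 95% intervals) in neutrophils split by UMIs per cell, by mitochondrial share (mt) and by a UMI of Cxcr2 or Retnlg after thinning to 1500 UMIs. In each stratum p38i is lowest and p38KO highest, but the intervals of vehicle and p38KO overlap with mt above 1% (311 and 328 CPM) and at 1500 to 2000 UMIs, and those of vehicle and p38i overlap without Cxcr2.

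Neutrophils with and without a Cxcr2 UMI after thinning were also compared, since CXCR2 is the receptor that draws neutrophils into tissue. With Cxcr2, Cxcr4 was at 246 CPM in vehicle, 152 CPM in p38i and 347 CPM in p38KO. Without Cxcr2, it was at 199 CPM, 165 CPM and 406 CPM. The gate needed 2 counts of Csf3r and Cxcr2 together before thinning. Cells without a Cxcr2 UMI can thus have lost it by thinning, and need not be negative for Cxcr2. The log2 ratios to vehicle were -0.70 and 0.50 with Cxcr2, and -0.27 and 1.02 without it, in p38i and p38KO in turn. Retnlg, which encodes resistin-like gamma and is abundant in bone marrow and blood neutrophils, gave a wider gap in level. Cells with Retnlg had 151 CPM in vehicle, 103 CPM in p38i and 219 CPM in p38KO, and cells without it had 299, 213 and 424 CPM. Within either stratum the log2 ratios were close to each other: -0.55 and -0.49 in p38i, 0.54 and 0.51 in p38KO. Neutrophils without a UMI of the secondary granule genes Camp, Ltf or Ngp gave log2 ratios of -0.53 and 0.57 at all counts. The few cells with such a UMI, 65 in vehicle, 114 in p38i and 62 in p38KO, had 112, 60.4 and 451 CPM, with log2 ratios of -0.88 (-1.58 to -0.19) and 2.02 (1.44 to 2.62). Camp, Ltf and Ngp were themselves far lower in p38KO neutrophils, as given below. A single such UMI thus need not mark the same kind of cell in each library, which was not tested.

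The maturity genes that differed beside Cxcr4 are given with these strata. Of the 17 genes of neutrophil ageing and trafficking, 3 were past the limit upward and 1 downward in p38i, where 16.6% and 6% of all genes were. The median of the list was -0.05. In p38KO 2 were past it upward and 6 downward, against 19.8% and 5% of all genes, with a median of 0.02. Camp, which encodes the antimicrobial peptide cathelicidin, went from 259 CPM in vehicle to 469 CPM in p38i and 3.52 CPM in p38KO. Ngp and Ltf (lactoferrin), of the same granules, had log2 ratios of 0.60 and 0.14 in p38i and of -3.77 and -3.15 in p38KO. Retnlg had 0.82 and -1.15, and Ly6g, the neutrophil surface marker, -0.25 and -1.29. Icam1, an adhesion molecule that activated neutrophils carry, was at -0.02 in p38i and 1.31 in p38KO, and the integrin gene Itgax at -0.34 and 0.99. The p38KO neutrophils thus had less of the granule transcripts and more Icam1 beside more Cxcr4. The part of maturity beyond the strata above was not tested. Mast cell or basophil markers summed to 4.95, 40.4 and 124 CPM in the neutrophils of vehicle, p38i and p38KO. Of the p38i sum, 33.2 CPM was Mcpt8, a basophil gene. Without cells that had a Cpa3, Ms4a2 or Mcpt8 count the log2 ratios of Cxcr4 were -0.58 and 0.63.

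Cells with a Cxcr4 UMI after thinning were set against those without, within each library. There were 426 and 1351 such neutrophils in vehicle, 383 and 1697 in p38i, and 513 and 1079 in p38KO. Of 1107 genes ranked, 460 were higher in the Cxcr4-positive cells of all 3 libraries, 137 were lower in all 3, and 510 had mixed signs. These counts describe 3 sets of cells and carry no test. A gene was ranked if it reached 100 CPM in the cells with or in those without a Cxcr4 UMI, in every library. The gene that led upward was Nr4a1, an immediate-early nuclear receptor gene that is also in the list of tissue dissociation genes, with log2 differences of 1.91, 1.95 and 1.61 in vehicle, p38i and p38KO. It was followed by Dennd4a (1.18, 1.06 and 0.78), Scimp (0.97, 0.77 and 0.87), Gngt2 (1.04, 0.73 and 1.07), Cks2 (0.76, 0.65 and 1.08) and Csf1, which encodes macrophage colony-stimulating factor (0.70, 0.57 and 0.81). Nr4a1, Scimp and Gngt2 reached 100 CPM only in the cells with a Cxcr4 UMI, in every library. They were thus ranked only through the cells where they were high, so their place is a description.

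Retnlg led downward, at -1.49, -1.47 and -1.76 in the same order. Prok2, which encodes the chemoattractant Bv8, had -1.49, -1.08 and -0.81. Cxcl3, a CXCR2 ligand, had -1.23, -1.03 and -0.79, and Ifitm6 had -1.78, -0.74 and -0.91. The stefin A genes Cstdc5 (-0.80, -0.87 and -1.10) and Stfa2 (-0.76, -0.89 and -1.47) are near-identical copies whose reads counting can split, so their single values are uncertain. Among genes looked at because of their role in neutrophil trafficking, S100a8 was lower with Cxcr4 in all 3 (-0.63, -0.50 and -0.69) and Ccrl2, an atypical receptor for chemerin, was higher (0.34, 0.63 and 0.54). Cxcr2 had no common sign (0.34, -0.06 and -0.13). Cxcr4-positive neutrophils of each library were thus poorer in Retnlg and S100a8, and no such common difference was seen in Cxcr2. Thinning does not match the cells by their depth before it. In vehicle the thinned Cxcr4-positive share was 35.3% in cells of 1500 to 2000 UMIs and 14.4% at 3000 or more. Vehicle neutrophils with Retnlg had a median of 3120 UMIs, against 2342 without it. The part of depth in these differences was not tested.

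In monocytes Cxcr4 was lower in both other libraries than in vehicle. The level was 153 CPM in vehicle (141 to 165, 628 UMIs in 439 cells), 105 CPM in p38i (96.8 to 113, 656 UMIs in 752 cells) and 124 CPM in p38KO (112 to 138, 382 UMIs in 363 cells). Both were below the vehicle interval, and p38i was below p38KO. The log2 ratio was -0.54 (-0.70 to -0.38) in p38i, where 5.73% of genes were past the limit downward. It was -0.29 (-0.48 to -0.11) in p38KO, short of the limit. When cells were assigned by whole marker lists in place of the Ly6c2 and Fn1 gate, the p38KO log2 ratio was 0.02. At 1500 UMIs a cell, 20.7%, 14.0% and 16.8% of monocytes had a Cxcr4 UMI. Neutrophil transcripts S100a8 and S100a9 stood in monocytes at 5.63%, 4.37% and 2.25% of their neutrophil level. The neutrophil Cxcr4 level at those shares would give 13.1, 6.82 and 8.10 CPM. Other neutrophil transcripts need not follow those shares, so these values are no upper bound. Markers of tumor cells (keratins, Epcam and Cldn4) summed to 155 CPM in p38KO monocytes and 141 CPM in p38KO neutrophils, the latter mostly Krt14, against 4.94 to 13 CPM in those gates of the other libraries. Of the 6 markers, 5 or 6 were detected in these p38KO gates, and 4 or 5 in the same gates of the others. Their part in the Cxcr4 values was not tested.

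Macrophages, which take up dying cells and carry the complement gene C1qa, had lower levels than monocytes. Cxcr4 was at 69.3 CPM in vehicle (60.8 to 78.7, 175 cells), 52.1 CPM in p38i (44.7 to 60.4, 194 cells) and 70.3 CPM in p38KO (64.9 to 76.1, 566 cells). The p38i library was lowest, and its interval lay just below that of vehicle. In p38i the log2 ratio was -0.41 (-0.70 to -0.12), and in p38KO it was 0.02 (-0.20 to 0.24). The mean of per-cell CPM gave -0.05 for p38i, and the thinned detected shares of 9.71%, 10.3% and 9.19% overlapped in all 3 libraries. Macrophages with a Mki67 or Top2a UMI, 2 genes of dividing cells, had 42.8 CPM in vehicle (18 UMIs), 5.80 CPM in p38i (2 UMIs) and 58.2 CPM in p38KO (94 UMIs), and 21 of the 94 UMIs were in 1 cell. The mast cell or basophil marker list stood at 162 CPM in p38KO macrophages with 7 of 7 detected. It stood at 0.291 CPM in vehicle with 1 detected, and none was detected in p38i. Without cells that had a Cpa3, Ms4a2 or Mcpt8 count, the p38KO log2 ratio was 0.05 (-0.17 to 0.27).

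The values furthest below vehicle were in lymphocytes, and here p38i and p38KO went the same way. In T cells Cxcr4 was at 71.4 CPM in vehicle (62.6 to 81.0, 239 UMIs in 537 cells), 31.2 CPM in p38i (25.1 to 38.2, 93 UMIs in 631 cells) and 35.7 CPM in p38KO (29.1 to 43.5, 100 UMIs in 508 cells). Vehicle stood apart from both, and p38i and p38KO overlapped. Cxcr4 was 2.29-fold lower in p38i (log2 ratio -1.20, -1.56 to -0.85) and had a log2 ratio of -0.998 in p38KO (-1.35 to -0.66). In T cells 5.73% of genes were past the limit downward in p38i and 6.67% in p38KO, and 0.824% and 1.89% of genes had a lower value than Cxcr4. The thinned detected share was 11.9% (9.30 to 15.0) in vehicle, 4.91% (3.36 to 6.90) in p38i and 5.31% (3.53 to 7.64) in p38KO. S100a8 and S100a9 in T cells stood at 0.428% to 0.734% of their neutrophil level. The neutrophil Cxcr4 level at that share would give 0.995, 1.14 and 1.68 CPM in vehicle, p38i and p38KO. Other neutrophil transcripts need not follow that share, so these values are no upper bound. Mast cell or basophil markers summed to 218 CPM in p38KO T cells with 7 of 7 detected. They summed to 0.597 CPM in vehicle and 0.670 CPM in p38i with 2 of 7 detected. Without cells that had a Cpa3, Ms4a2 or Mcpt8 count, the T cell log2 ratios were -1.19 and -0.98.

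T cells were split by Cd4 and the Cd8 genes after thinning. T cells with Cd4 had 108 CPM in vehicle (40 UMIs in 82 cells), 33.4 CPM in p38i (12 UMIs in 93 cells) and 36.2 CPM in p38KO (21 UMIs in 112 cells). The log2 ratios were -1.69 (-2.76 to -0.74) and -1.58 (-2.42 to -0.78). T cells with neither gene had 128, 52.8 and 39.8 CPM, and their log2 ratios of -1.27 and -1.68 had intervals below 0 as well. This set held 206, 316 and 255 cells. Cd4 was at only 96.2 CPM in the vehicle T gate, so the set can include CD4 cells whose Cd4 was not detected after thinning. It is thus not a separate kind of T cell. T cells with Cd8 had a lower level throughout: 29.5 CPM in vehicle (54 UMIs in 248 cells), 9.74 CPM in p38i (13 UMIs in 220 cells) and 29.8 CPM in p38KO (27 UMIs in 140 cells). The p38i ratio was -1.60 (-2.60 to -0.71) and the p38KO ratio 0.01 (-0.71 to 0.70), but 16 of the 27 UMIs in p38KO were in 1 cell. The share of Cd8 cells with a Cxcr4 UMI was 15.3% in vehicle, 4.55% in p38i and 6.43% in p38KO, at medians of 6096, 5256 and 5556 UMIs a cell. After thinning it was 4.03% (1.95 to 7.29), 2.27% (0.742 to 5.22) and 2.14% (0.444 to 6.13), and all 3 intervals overlapped.

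NK cells, killer lymphocytes marked by Ncr1, had the lowest ratios of the 6 gates. Cxcr4 was at 132 CPM in vehicle (107 to 162, 95 UMIs in 116 cells), 38.7 CPM in p38i (25.5 to 56.2, 27 UMIs in 112 cells) and 26.7 CPM in p38KO (17.4 to 39.1, 26 UMIs in 131 cells). Vehicle was far above both, which overlapped. The level was 3.42-fold lower in p38i (log2 ratio -1.77, -2.45 to -1.14) and 4.95-fold lower in p38KO (log2 ratio -2.31, -2.99 to -1.67). Among NK cells 16.1% and 15.9% of genes were past the limit downward, and 0.647% and 0.245% were below Cxcr4. After thinning, 20.7% (13.7 to 29.2), 6.25% (2.55 to 12.5) and 5.34% (2.18 to 10.7) of NK cells had a Cxcr4 UMI. The p38KO NK gate also carried mast cell or basophil markers, which summed to 1455 CPM with 6 of 7 detected. The sums were 43.1 and 37.2 CPM in the other libraries with 2 of 7 detected. Without cells that had a Cpa3, Ms4a2 or Mcpt8 count, the p38KO log2 ratio was -2.34 on 117 cells. At the S100a8 and S100a9 share of this gate, the neutrophil Cxcr4 level would give 0.666, 0.269 and 0.536 CPM in vehicle, p38i and p38KO. Other neutrophil transcripts need not follow that share, so these values are no upper bound. Cxcl2, at 10684 CPM in vehicle neutrophils, had 452, 24.3 and 21.6 CPM in NK cells in the same order. The part of neutrophil RNA in the NK values of Cxcr4 was not tested.

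**Figure D3:**
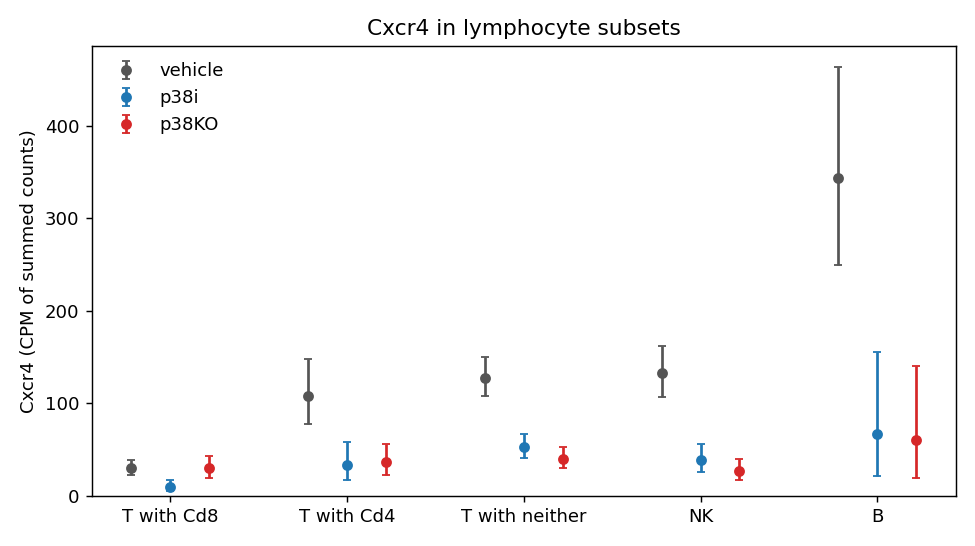
Cxcr4 level (CPM of summed counts, exact Poisson 95% intervals) in T cells with a Cd8 gene, with Cd4 or with neither, in NK cells and in B cells (Cd79a or Ms4a1, outside the 6 gates), for each library. Vehicle stands highest in T cells with Cd4 or neither, in NK cells and in B cells, and in Cd8 T cells it is level with p38KO (29.5 and 29.8 CPM).

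Dendritic cells were too few to compare. Cxcr4 was at 19.3 CPM in vehicle (6 UMIs in 20 cells), 27.5 CPM in p38i (14 UMIs in 40 cells) and 18.1 CPM in p38KO (11 UMIs in 41 cells). The log2 ratios of 0.51 (-0.96 to 2.18) and -0.09 (-1.65 to 1.63) leave both directions within counting error. In p38i 22.5% of genes were past the limit upward in this gate.

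The order of the gates by Cxcr4 level thus differed between libraries below the neutrophils. In vehicle it ran neutrophil, monocyte, NK, T, macrophage, DC, and the intervals of monocyte and NK cells, and of T cells and macrophages, overlapped. In p38i it ran neutrophil, monocyte, macrophage, NK, T, DC, and from macrophage downward each overlapped the next. In p38KO it ran neutrophil, monocyte, macrophage, T, NK, DC, and T, NK and DC overlapped in turn. NK cells thus stood beside monocytes in vehicle and beside T cells in the other libraries. The lowest level in any set of over 50 cells was that of mast cells or basophils in p38KO, with 6.24 CPM (2 UMIs in 81 cells, 2.47% of cells at a median of 2864 UMIs).

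**Figure D4:**
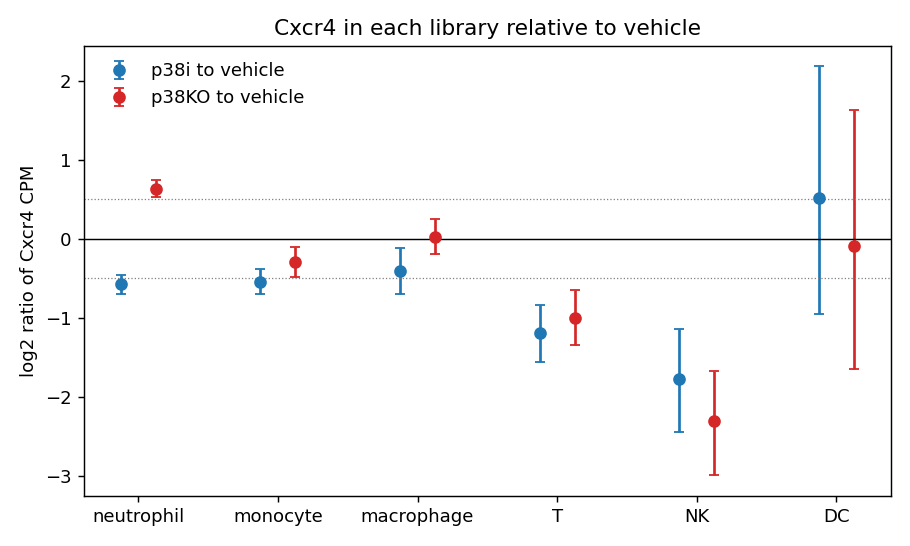
Log2 ratio of Cxcr4 CPM in p38i and in p38KO to vehicle in each of the 6 gates, with exact conditional binomial 95% intervals; dotted lines mark 0.5 either way. Neutrophils split to -0.58 and 0.63, T and NK cells lie from -0.998 to -2.31 in both libraries, and the DC intervals span 0.

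Genes of the CXCR4 pathway were then read in the same gates, starting with other chemokine receptors. In neutrophils 10 of 22 receptors could be compared in p38i, with a median log2 ratio of -0.13 against 0.11 over all genes. Of these, 2 were past the limit upward and 1 downward, where 16.6% and 6% of all genes were. In p38KO 9 could be compared, with 3 upward and none downward, where 19.8% and 5% of all genes were. Their median was 0.40 against 0.15. Ccrl2 had 1535 CPM in vehicle, 814 CPM in p38i and 1914 CPM in p38KO, with log2 ratios of -0.92 and 0.32. Ccr1, a receptor for CCL3 and CCL5, had -0.47 and 0.29, and Cxcr2 had -0.13 and 0.31. These 3 receptors had the same signs as Cxcr4 in neutrophils, but Cxcr2 counts helped define that gate, so its ratio depends on the gate. Ccr2 (0.81 and 0.72), a receptor of monocytes, was higher in both. The monocyte markers Fn1 and Chil3 stood in this gate at 15.4 and 13.4 CPM in vehicle. They were at 27.7 and 37.7 CPM in p38i, and at 40.1 and 12.2 CPM in p38KO. The part of monocyte RNA in the Ccr2 values was not tested. In NK cells all 6 receptors that could be compared in p38i were past the limit downward, where 16.1% of all genes were. Among them were Ccr1 (-2.34) and Ccrl2 (-1.83). The intervals of Cxcr3 (-0.52, -1.32 to 0.25) and Cxcr6 (-0.63, -1.38 to 0.10) held 0. In p38KO 4 of 7 were past it downward, where 15.9% of all genes were. These 4 include Cxcr3 (-0.69, -1.43 to 0.03), whose interval holds 0. Another 2 were past it upward, where 13.1% of all genes were: Cxcr6 (1.40) and Cx3cr1 (1.56 on 16 UMIs against 4, with an interval that holds 0). The medians of the list were -0.71 and -0.53 in NK cells, against -0.06 and -0.02 over all genes. In T cells 2 of 10 receptors were past it downward in p38i, Ccr2 (-0.53) and Ccr7 (-0.60), where 5.73% of all genes were. Another 1 was past it upward, Ccr6 (0.65 on 14 UMIs against 10, with an interval that holds 0), where 10.2% of all genes were. Cxcr3 and Cxcr6 stood at -0.11 and -0.01, with a list median of -0.06. In p38KO T cells 3 of 12 were past it upward, where 13.9% of all genes were, namely Ccr6 (1.84), Ccr9 (1.48) and Ccr1 (0.56). Another 2 were past it downward, Ccr7 (-0.81) and Cx3cr1 (-0.93), where 6.67% of all genes were. The list median was -0.01.

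Of the ligands, Cxcl12 had no UMI in neutrophils or monocytes of any library and at most 2 UMIs in macrophages, T and NK cells, as a CD45+ sort leaves out the stroma that makes it. Mif, which encodes the other cytokine ligand, was at -0.05 in p38i and -0.35 in p38KO neutrophils. Cd74, which encodes the MIF receptor chain that pairs with CXCR4, was at 355 CPM in vehicle neutrophils, 556 CPM in p38i (log2 ratio 0.65) and 618 CPM in p38KO (0.80). It was higher in NK cells too (1.34 and 1.65) and was at -0.69 and -0.11 in T cells. Cd74 was 1 of the 4 ligand and cofactor genes compared in neutrophils and the 1 that passed the limit. The macrophage gene C1qa stood in the neutrophil gate at 36.3 CPM in vehicle, 14.9 CPM in p38i and 98.2 CPM in p38KO. The part of RNA from other cells in the neutrophil Cd74 values was not tested. Of all genes, 16.6% in p38i and 19.8% in p38KO passed it upward. The medians of that list were 0.01 and 0.03. The 16 genes of CXCR4 signalling, from the Gi protein subunits Gnai2 and Gnai3 to the Rac activator Dock2 and the actin regulator Coro1a, had medians of -0.05 in p38i and 0.05 in p38KO neutrophils. None passed the limit in monocytes, macrophages or T cells of either library or in p38i neutrophils. In p38KO neutrophils 2 did upward, Pik3cg (0.70) and Vav1 (0.61), where 19.8% of all genes did. In p38KO NK cells 1 did downward, Pik3r5 (-1.32), where 15.9% of all genes did.

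Of the 13 genes compared that desensitize CXCR4 or carry it inside, 0 were past the limit in p38i neutrophils (median -0.06). There 16.6% of all genes were past it upward and 6% downward. In p38KO neutrophils 2 were past it upward and 1 downward, where 19.8% and 5% of all genes were (median 0.18). Grk2 was at -0.08 and 0.43, and Arrb2, beta-arrestin 2, at -0.06 and 0.20. Itch, the ubiquitin ligase that sends CXCR4 to lysosomes, was at -0.09 and -0.59. Rgs1, which shortens Gi signalling of chemokine receptors, differed most outside neutrophils. In NK cells it had 746 CPM in vehicle, 130 CPM in p38i and 148 CPM in p38KO, with log2 ratios of -2.52 and -2.34. Monocytes had -1.53 and -1.49, macrophages -2.10 and -1.36, and T cells -1.49 and -0.36. In neutrophils Rgs1 was at -0.27 and -0.08. Rgs1 was thus past the limit downward in 7 of the 8 comparisons outside neutrophils and DC, among them p38KO macrophages, where Cxcr4 was at 0.02. In DC it went the other way: 7 UMIs in vehicle, 40 in p38i and 73 in p38KO gave a p38i ratio of 1.81 (0.63 to 3.21) and a p38KO ratio of 2.41 (1.30 to 3.78).

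Transcription factors reported to act on Cxcr4 were led by Tsc22d3, a gene that glucocorticoids induce. In neutrophils it had 150 CPM in vehicle, 73.3 CPM in p38i and 61.0 CPM in p38KO, with log2 ratios of -1.03 and -1.30. It was past the limit downward in monocytes (-0.84 and -1.18), T cells (-1.26 and -1.50) and NK cells (-1.59 and -2.90), but not in macrophages (0.06 and -0.22). Nr3c1, the glucocorticoid receptor gene, lay between -0.37 and 0.24 in these 5 gates. Hif1a, the hypoxia regulator, was at -0.01 and 0.10 in neutrophils and at -0.66 and -1.12 in NK cells. Klf2, which keeps resting T cells quiescent, was at -0.59 and -0.76 in T cells. Nrf1, whose motif lies in the promoter, was at 0.15 and 0.02 in neutrophils. Over the list, 1 of 12 genes was past the limit downward and 1 upward in p38i neutrophils, where 6% and 16.6% of all genes were (median 0.04). In p38KO neutrophils 1 of 13 was past it downward and 1 upward, where 5% and 19.8% of all genes were (median 0.18). In p38KO NK cells 6 of 13 were past it downward, where 15.9% of all genes were (median -0.38). In p38i NK cells 3 of 13 were, where 16.1% of all genes were (median -0.32). In p38i T cells 3 of 14 were past it downward and 1 upward, where 5.73% and 10.2% of all genes were (median 0.08). In p38KO T cells 2 of 14 were past it downward and 2 upward, where 6.67% and 13.9% of all genes were (median 0.13).

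Transcripts that rise when tissue is taken apart were followed beside these values, since they differed between libraries. Of 17 such genes 6 were past the limit downward in p38i neutrophils (median log2 ratio -0.38) and 2 in p38KO neutrophils (median 0.15). Of all genes, 6% and 5% were. Monocytes had 11 and 6 of 17 downward in p38i and p38KO, where 5.73% and 4.59% of all genes were, with medians of -0.60 and -0.39. Macrophages had 9 and 7, against 8.48% and 5.68% of all genes, with medians of -0.57 and -0.27. T cells had 9 and 4, against 5.73% and 6.67% of all genes, with medians of -0.51 and -0.19. NK cells had 10 of 15 and 10 of 17, against 16.1% and 15.9% of all genes, with medians of -1.37 and -0.82. Dusp1, a MAP kinase phosphatase gene, was below vehicle in all 5 of these gates in both libraries, from -0.64 in p38KO neutrophils to -2.39 in p38i NK cells. Fos was at -0.64 and -0.27 in neutrophils, -1.60 and -0.62 in T cells, and -3.50 and -1.71 in NK cells. The digestion was run cold in all groups. With 1 library per group, handling cannot be told apart from the inhibitor or the knockout in the values of these genes. Their part in the Cxcr4 values was not tested.

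**Figure D5:**
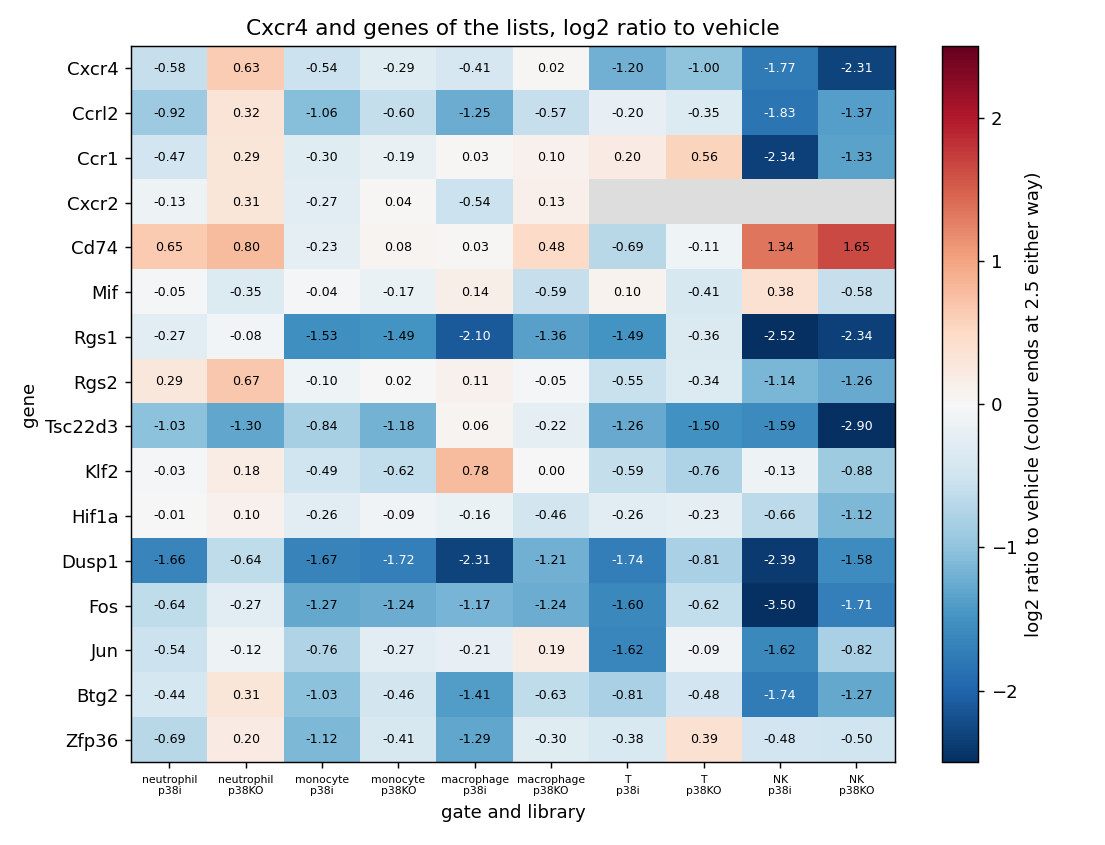
Log2 ratio to vehicle of Cxcr4 and of 15 genes from the lists in 5 gates of the p38i and p38KO libraries, printed in each cell and coloured from blue (lower) to red (higher); grey marks fewer than 20 counts over both libraries. The genes shown were chosen after their values were seen. Ccrl2 shares the signs of Cxcr4 in neutrophils (-0.92 and 0.32), while Tsc22d3 is lower in both (-1.03 and -1.30).

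Finally, genes were ranked by how closely their level followed that of Cxcr4 over the 18 sums of 6 gates and 3 libraries. The measure was Pearson's r of log2(CPM + 10) among 2823 genes that reached 100 CPM in at least 1 sum. The sums share libraries and differ mostly by cell type, so r is a description. The closest were Cxcl2 (r = 0.94), a CXCR2 ligand, H3f3b (0.93), a histone gene, Irf2 (0.92), Fosl2 (0.92), Snx18 (0.92) and Hilpda (0.92), a lipid droplet gene. In neutrophils 3 of the 6 lacked the signs of Cxcr4. Cxcl2 had log2 ratios of -0.82 in p38i and -0.22 in p38KO neutrophils, and Hilpda had -0.27 and -0.57. Snx18 had -0.10 and -0.02. Fosl2 (-0.08 and 0.31), H3f3b (-0.17 and 0.06) and Irf2 (-0.23 and 0.04) had both signs of Cxcr4 but were short of the limit. In NK cells all 6 were below vehicle in p38i, from -0.33 for Irf2 to -4.22 for Cxcl2.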

How the data were processed

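Live CD45+ cells from 3 pooled tumors a group were profiled with 10x 3' chemistry. The authors aligned reads to mm10 with Cell Ranger (6.0.0 in the file headers) and deposited raw UMI counts per gene and barcode. The labels and the methods differ on the chemistry version and the number of sorted cells. R 4.2.1 and Seurat 5, named in the submitters' processing notes, were not used to make the values here.

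Each count matrix was read as deposited. Cells had at least 1500 UMIs, 300 genes and at most 20% mitochondrial counts. The neutrophil, monocyte and macrophage gates needed 2 counts and the T, NK and DC gates 1. Cells that met conflicting gates (121, 176 and 203 in vehicle, p38i and p38KO) or none (635, 808 and 455) were left out, and no doublet caller was run. Counts were summed per gate and library. With 1 library per group no test was possible. Ratios carry exact conditional binomial 95% intervals, shares Clopper-Pearson intervals, levels exact Poisson intervals. The ratio step recovered known changes when tested on simulated data. The simulation planted changes larger than the neutrophil ratios of Cxcr4, left out genes of low counts and held no differences between mice. It thus does not bear on small ratios or on ratios of few counts. Thinning used a fixed seed. Alternatives covered gates, cell filters, scaling and strata. Named genes were Cxcr4, members of the lists with the largest neutrophil ratios or a defining role, and the 6 most alike over the 18 sums. Also named were the 6 highest and 6 lowest in Cxcr4-positive neutrophils. Both rankings left out mitochondrial, ribosomal, Gm-numbered and Rik genes. A gene needed at least 100 CPM, in any sum for the first ranking. For the second it needed this in either set of cells in every library. Other genes were chosen after their values were seen. The gene, the lists and the gates were chosen with earlier results of these data known. Promoter windows came from RefSeq, coordinates from GENCODE M21 on GRCm38, the mm10 build. Python 3.11.15, numpy 2.4.6, pandas 2.3.3, scipy 1.17.1 and matplotlib 3.10.9 were used. Some members of the lists are counted but not reported by name here.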

Additional observations from a re-analysis of the deposited data

Results flagged for a closer look

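The p38KO library went in opposite directions in different cells. Relative to vehicle, the Cxcr4 log2 ratio was 0.63 in the neutrophil gate, and -0.29, -0.998 and -2.31 in the monocyte, T and NK gates, each with a counting interval that leaves out 0. The difference between gates was not tested, since each group was 1 library.

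Barcodes that failed the cell filter, which entered no reported comparison but only the alternative without that filter, also held Cxcr4: 351 CPM in p38KO (570 UMIs in 1353 barcodes) against 272 CPM in vehicle (239 UMIs in 768 barcodes) and 248 CPM in p38i (443 UMIs in 1550 barcodes).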

How the results depend on the processing

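Of 148 alternative values for the 12 ratios of Cxcr4 to vehicle, 129 lay within the counting interval of the reported value. The neutrophil ratios kept their signs in 19 of 19 alternatives for either library. Cxcr4 was chosen by those signs and the alternatives reuse the same libraries, so this is a description. The lowest p38KO value was 0.078 (-0.14 to 0.30), in cells above 1% mitochondrial counts. Both T and both NK ratios kept their signs in 11 of 11 alternatives. The NK values lay between -1.92 and -1.39 for p38i, and between -2.87 and -1.99 for p38KO. The depth, mitochondrial, maturity and mast cell or basophil splits were chosen after seeing the data.

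Neutrophil p38i gave -0.78, -0.82 and -0.37 in cells of 1500 to 2000, 2000 to 3000 and 3000 or more UMIs, and -1.02 above 1% mitochondrial counts. Neutrophil p38KO gave 0.23, 0.38 and 0.84 in the same depth bins, 0.80 at 2500 UMIs in the cell filter, 0.46 with median-ratio scaling, 0.80 at most 1% and 0.078 above 1% mitochondrial counts, and 0.51 without Retnlg. With classes by whole marker lists, monocyte p38KO gave 0.021, macrophage p38i 0.0021, DC p38KO -1.93 and DC p38i -0.84, which reversed its sign. The mean of per-cell CPM gave -0.052 for macrophage p38i, gates set after thinning gave -1.40 for T p38KO, and stricter gates gave 2.41 for DC p38i. Without the filter on low counts 7093 neutrophil genes were past the limit in p38i, against 2008, and 7476 in p38KO, against 2149, since genes of few counts entered. The causes of the other moves were not tested.

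Of the ratios printed, those of DC and of subsets with under 30 counts are limited by depth. No paired analysis was possible because each group was 1 library.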

Other observations

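B cells, gated outside the 6 classes by a Cd79a or Ms4a1 UMI, had 344 CPM of Cxcr4 in vehicle (249 to 463, 43 UMIs in 31 cells), 66.6 CPM in p38i (21.6 to 155, 5 UMIs in 22 cells) and 59.9 CPM in p38KO (19.5 to 140, 5 UMIs in 12 cells). Vehicle lay above both, and the log2 ratios were -2.37 (-4.06 to -1.04) and -2.52 (-4.21 to -1.19). CXCR4 holds developing B cells in the bone marrow.

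Kept cells that met no gate had 170 CPM in vehicle, 154 CPM in p38i and 171 CPM in p38KO, with intervals that overlapped. Of 13 clock genes 11 had enough counts in p38KO macrophages, and 8 of these were past the limit upward, where 15.4% of all genes were, with a median log2 ratio of 0.85 against 0.05 over all genes. In p38KO T cells 4 of 9 were past it upward and 1 downward, where 13.9% and 6.67% of all genes were (median 0.26). The list median was 0.16 in p38KO monocytes and -0.15 in p38KO NK cells, against 0.09 and -0.02 over all genes. In neutrophils 1 of 5 was past it upward in p38i, where 16.6% of all genes were (median -0.16). In p38KO 1 of 6 was past it upward and 1 downward, where 19.8% and 5% of all genes were (median -0.03).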
